A study of Mus musculus with 2 samples.

Results

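The chemokine-expressing mature neutrophils of the calvarial defect were 449 cells, 338 in the library from gambogic amide (GA) treated mice and 111 in the library from vehicle control mice, out of 17129 cells within the quality limits (9036 GA and 8093 control). They were chosen by their own transcripts. A cell entered when S100a8 and S100a9 made up at least 3% of its unique molecular identifiers (UMIs, each standing for 1 captured mRNA molecule), Camp, Ngp and Ltf together less than 0.5%, Col1a1 and Col1a2 less than 1%, Csf1r was below 2 UMIs, and Ccl3 and Ccl4 together reached 5 UMIs. Ccl3 and Ccl4 are therefore given as a description of the choice. All other genes were read from the same cells, so differences from other neutrophils are descriptions as well. Mature neutrophils that failed only the Ccl3 and Ccl4 rule, 2060 in GA and 919 in control, are called the other mature neutrophils.

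Neutrophils are made in the bone marrow, leave it as largely finished cells, and are among the first leukocytes to enter injured tissue. There, engagement of pattern recognition and cytokine receptors switches on transcription through NF-kB and immediate early factors, and the cells begin to make chemokines and cytokines of their own. Ccl3 and Ccl4 (MIP-1 alpha and MIP-1 beta) call in monocytes, macrophages and lymphocytes through receptors such as Ccr1, Cxcl2 calls in further neutrophils through Cxcr2, and Il1b (interleukin-1 beta) is a precursor that is cut by an inflammasome protease and acts on most tissue cells.

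The study asked how gambogic amide changes the cells of a healing skull defect. Both groups were male C57BL/6 mice (substrain C57BL/6J), 2 months old, with a defect in the cranial bone, given a daily intraperitoneal injection of 100 µL for 1 week, beginning 24 h before injury. The GA group received gambogic amide, a small molecule, at 1.2 mg/kg in 10% DMSO, and the control group the 10% DMSO vehicle alone. Dose and duration are those of the sample labels, and the paper's methods state others. Bone from 5 mice per group was pooled on day 7, digested with collagenase, treated with red blood cell lysis buffer and run as 1 droplet library per group. With 1 library on each side, no test between conditions was possible. Every 95% interval below covers counting error only, not the spread between mice.

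The 338 GA cells held 1953496 UMIs (median 5130 per cell, 1453.5 genes) and the 111 control cells 470445 UMIs (median 3934), so GA values are the more precise. The label was checked against further markers. Csf3r, the receptor for the neutrophil growth factor G-CSF, was detected in 335 of 338 GA and 107 of 111 control cells, and Cxcr2, the receptor for Cxcl2, in 308 and 100. Of macrophage genes, the complement gene C1qa was detected in 5 and 3 cells, the endosomal protein gene Cd68 in 92 and 34, and Csf1r, which the rule limits to 1 UMI, in 71 and 28. The 14 macrophage and monocyte markers summed to 731 CPM (UMIs of a gene or list scaled to a class total of 1000000) in GA and 684 CPM in control, against 731 and 885 CPM in the other mature neutrophils and 14047 and 25290 CPM in Csf1r-positive cells of the same libraries. Their most abundant gene was Ly6c2 in GA and Apoe in control, and Ms4a7 was at 0 in control. Of 8 of these markers with enough UMIs, 5 were above the level of the other mature neutrophils in both libraries, with median log2 ratios of 0.35 and 0.26. The 8 basophil and mast cell markers had 2 UMIs in GA and 3 in control, with Cpa3, Gata2, Fcer1a, Ms4a2, Cd200r3 and Il4 at 0 in both. Markers of other cells summed to 97 and 10 UMIs for T and NK cells, 145 and 54 for B cells (140 and 52 of them Ighm), 58 and 40 for dendritic cells, 28 and 6 for eosinophils, 700 and 221 for mesenchymal cells (341 and 99 of them Col1a1, which the rule limits), 38 and 14 for endothelial cells and 69 and 23 for erythroid cells, in GA and control. Their part in the results was not tested. No member barcode occurred in both libraries, while 23 barcodes of all cells did.

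A few deep cells carried transcripts of other kinds. Among the GA members, 12 cells exceeded 10000 UMIs and held 253446 of the 1953496 UMIs. In control, 2 cells did and held 26658 of 470445. Within the GA set, 2 cells held 1355 of the 1401 UMIs of the azurophil granule genes Elane, Prtn3, Mpo and Ctsg, which are normally transcribed in marrow precursors. There, 4 cells held 297 of 317 UMIs of the division genes Top2a, Mki67 and Hist1h1b, and 2 cells held 74 of 90 UMIs of the T and NK cell genes Cd3e, Cd3d, Cd3g, Trac and Nkg7. Of the plasmacytoid dendritic cell genes Siglech, Tcf4 and Irf8, 2 GA cells held 124 of 164 UMIs, and 1 control cell of 15285 UMIs held all 85. Removing the highest doublet scores would take out 8 GA members (2.37%) and 1 control member (0.901%). Whether these cells were doublets was not tested. Where 5 cells held over 50% of the UMIs of a gene whose ratio is given, that share is given once with it.

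As a share of mature neutrophils, the chemokine-expressing cells were 14.1% in GA (95% exact Clopper-Pearson interval 12.7 to 15.6, 338 of 2398) and 10.8% in control (8.95 to 12.8, 111 of 1030), a ratio of 1.31 (1.07 to 1.6). Mature neutrophils of control were shallower. When every cell was thinned to 2000 UMIs and 2 UMIs of Ccl3 and Ccl4 were required, the ratio was 1.01. Without thinning it was 1.12 at a threshold of 3 UMIs and 1.14 with the pair at 0.1% of UMIs or more. The part of depth in these values was not tested. As a share of all cells within limits the chemokine-expressing cells were 3.74% (3.36 to 4.15) in GA and 1.37% (1.13 to 1.65) in control, a ratio of 2.73 (2.21 to 3.37), and 2.1 after thinning. Mature neutrophils of every kind made up 26.5% of GA cells and 12.7% of control cells. A larger share of one class in a single library lowers the shares of all others, and numbers of cells per mouse were not measured.

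Within the set, Ccl3 and Ccl4 together ranged from 5 UMIs to 386 in GA (quartiles 8, 14 and 27) and to 127 in control (median 12). At least 20 UMIs were found in 35.2% of GA members (30.1 to 40.6) and 34.2% of control members (25.5 to 43.8). At the edge of the rule in GA, 20 cells had exactly 5 UMIs and 36 cells just outside had 4, and in control 10 and 22. Across it, in the cells with 4 and then 5 UMIs, Cxcl2 stood at 3721 and 3696 CPM in GA and 3779 and 4027 CPM in control. Retnlg, typical of blood neutrophils, stood at 18430 and 10350 CPM in GA and at 8341 and 16109 CPM in control, opposite in direction.

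Ccl4 was the more widely detected of the pair. It was found in 93.8% of GA members (90.7 to 96.1) and 92.8% of control members (86.3 to 96.8), and Ccl3 in 53.8% (48.4 to 59.3) and 60.4% (50.6 to 69.5). B cells, set beside the members for comparison, had a Ccl3 UMI in 5.13% and 4.22% of cells and a Ccl4 UMI in 8.88% and 9.75%, at median depths of 8549 and 7213 UMIs. With every cell thinned to 2000 UMIs, Ccl3 was found in 45.3% and 53.2% of members and 0.971% and 0.585% of B cells, and Ccl4 in 89.1% and 87.4% of members and 2.5% and 5.41% of B cells. More Ccl4 than Ccl3 UMIs were counted in 271 GA and 82 control members. Summed over cells, Ccl3 stood at 956 CPM in GA and 1824 CPM in control, and Ccl4 at 3203 CPM and 3597 CPM. There were 3.35 Ccl4 UMIs for each Ccl3 UMI in GA members (3.18 to 3.53) and 1.97 in control members (1.82 to 2.14). The same ratio was 2.31 (1.97 to 2.73) and 1.62 (1.32 to 1.99) in the other mature neutrophils, and 1.52 (1.48 to 1.56) and 1.58 (1.55 to 1.62) in Csf1r-positive cells. In B cells it was 2.47 (2.04 to 3) and 4.74 (3.77 to 6.01). The choice by the sum of both genes shapes the ratio in the members.

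**Figure D1:**
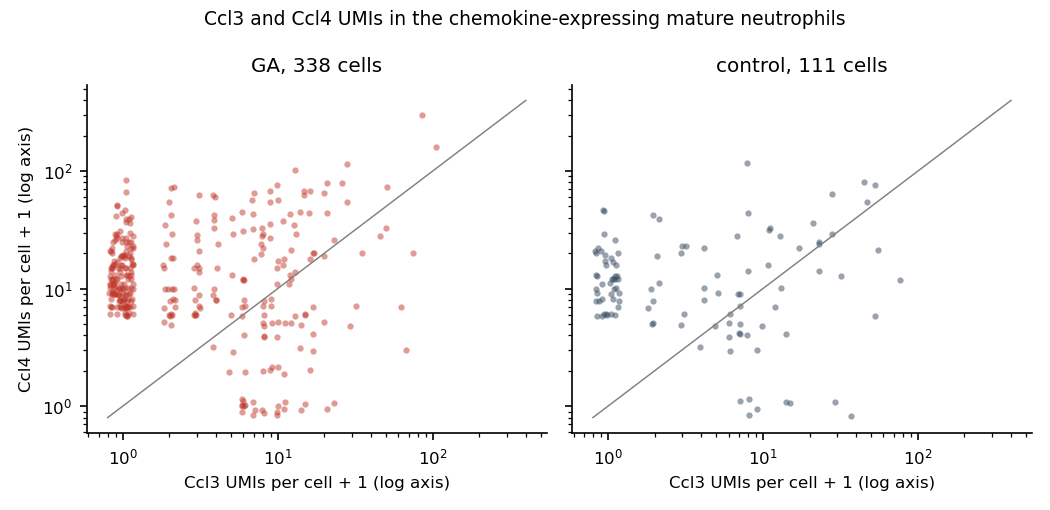
Each point is 1 chemokine-expressing mature neutrophil, with its Ccl3 UMIs plus 1 on the horizontal log axis and its Ccl4 UMIs plus 1 on the vertical log axis, slightly jittered; the grey line marks equal numbers. A column of 156 GA and 44 control cells at the left has Ccl4 and no Ccl3, and the empty lower left corner is the rule of 5 UMIs.

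Ccl3 (ENSMUSG00000000982) lies on chromosome 11 of GRCm38 from 83647844 to 83649355 on the minus strand, and Ccl4 (ENSMUSG00000018930) from 83662584 to 83664683 on the plus strand, both protein coding. Cxcl2 (ENSMUSG00000058427) lies on chromosome 5 and Csf1 (ENSMUSG00000014599) on chromosome 3. Because NF-kB targets were among the transcripts that accompanied Ccl3 and Ccl4, the 250 bases before the RefSeq transcription start of Ccl3, Cxcl2 and Csf1 (GRCm38.p6) are shown, 5′ to 3′ in the direction of transcription. Capitals mark GGNNTTTCC or its other-strand form GGAAANNCC, a core NF-kB motif.
Ccl3, chr11:83649379-83649628, minus strand: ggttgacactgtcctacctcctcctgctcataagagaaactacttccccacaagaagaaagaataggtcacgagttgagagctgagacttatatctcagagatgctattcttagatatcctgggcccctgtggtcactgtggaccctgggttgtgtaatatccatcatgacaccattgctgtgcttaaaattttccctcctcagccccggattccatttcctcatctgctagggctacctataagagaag
Cxcl2, chr5:90903649-90903898, plus strand: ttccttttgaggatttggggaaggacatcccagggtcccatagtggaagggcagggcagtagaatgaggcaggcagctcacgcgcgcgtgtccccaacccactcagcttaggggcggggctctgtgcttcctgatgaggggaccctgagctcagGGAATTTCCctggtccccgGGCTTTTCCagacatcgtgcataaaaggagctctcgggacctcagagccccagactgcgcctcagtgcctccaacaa
Csf1, chr3:107760470-107760719, minus strand: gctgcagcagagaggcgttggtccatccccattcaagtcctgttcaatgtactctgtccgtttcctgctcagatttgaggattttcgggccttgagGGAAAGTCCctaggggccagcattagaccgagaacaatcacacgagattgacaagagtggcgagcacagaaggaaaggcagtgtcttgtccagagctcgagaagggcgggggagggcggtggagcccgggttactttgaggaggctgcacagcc
Cxcl2 has 2 matches, beginning 96 and 77 bases before the start, and Csf1 has 1, beginning 154 bases before it. None was found in the windows of Ccl3, Il1b and Tnf. Of 32536 distinct RefSeq promoter windows of that length, 4.93% held the motif. The AP-1 motif TGANTCA, the same on both strands, was in 6.73% of windows and in none of the 5. A match describes letters only, and its absence in this window says nothing about the factor.

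Against the other mature neutrophils, 101 of 5985 genes with at least 50 UMIs in either class of each library (1.69%) were at least 2 times higher in the chemokine-expressing cells in both libraries, and 119 (1.99%) at least 2 times lower. Among the 2897 genes of which 5 cells held under 50% of the members' UMIs in each library, 58 were higher and 0 lower. A gene with few UMIs in the members seldom meets that limit. The 12 genes with the largest smaller ratio were taken without that limit, Ccl3 and Ccl4 left out. They were Csf1, Clec4n, Egr2, Pmaip1, Bcl2a1d, Egr3, Cxcl2, Tnfrsf26, Spp1, Atf3, Gm29282 and Bcl2a1b. At 2 times in both libraries, 2 of 19 NF-kB and 8 of 18 immediate early genes with enough UMIs were higher in these cells. The median over all 5985 genes was -0.09 on the log2 scale in GA and -0.14 in control, and 2423 of them were above 0 in GA and 2481 in control. Ratios below are log2 ratios of CPM, given for GA first and control second.

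Among CXC chemokines, Cxcl2 stood at 6529 CPM against 1873 CPM in the other mature neutrophils of GA and at 8664 against 1925 CPM in control, ratios of 1.80 (1.77 to 1.83) and 2.17 (2.12 to 2.22). It was present in 87% and 84.7% of members and in 71.3% and 63.9% of the other mature cells. Its paralog Cxcl3 was carried by fewer cells. It reached 141 against 34.2 CPM and 145 against 47.6 CPM, with 53.5% of its GA UMIs and 66.2% of its control UMIs in 5 cells. Cxcl1, another Cxcr2 ligand, was at 22.5 CPM in GA members and 19.1 CPM in control members, with ratios of 0.43 (-0.07 to 0.90) and -0.35 (-1.52 to 0.62), and 55.6% of its 9 control UMIs were in 5 cells. Among CC chemokines, Ccl6 was abundant in both classes (1490 against 1436 CPM in GA) with ratios of 0.05 and 0.16. Ccl2, the main monocyte attractant, and Ccl9 were 2 times higher in both libraries at low levels, Ccl2 at 40.4 CPM and 95.7 CPM with 60.8% and 77.8% of UMIs in 5 cells, and Ccl9 with 63.5% and 56.2%.

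Of the chemokine receptors, Ccrl2, a non-signalling receptor that presents chemerin, was higher (316 against 99.9 CPM in GA, 585 against 165 CPM in control, ratios of 1.66 and 1.83). Ccr1, through which Ccl3 signals, had ratios of 0.63 (0.55 to 0.70) and 0.77 (0.63 to 0.91), and Cxcr4, which holds neutrophils in the marrow, 0.62 and 0.70. Cxcr2 was level at 0.05 (-0.02 to 0.12) and 0.15 (0.00 to 0.29), with 993 and 957 CPM. Of the 5 measured genes of the receptor list, 5 lay above 0 in both libraries and 1 reached 2 times.

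In the interleukin-1 list of 15 genes, 3 of 14 measured were at least 2 times higher in both libraries. Il1b, a marker of these cells that the rule did not use, stood at 7973 against 4827 CPM in GA and 8777 against 4407 CPM in control, ratios of 0.72 (0.70 to 0.75) and 0.99 (0.95 to 1.04), and was found in 97.9% and 99.1% of cells. Its ratios were below those of Cxcl2, and 92.5% and 88.1% of the other mature cells had an Il1b UMI too. B cells had an Il1b UMI in 15.3% and 7.57% of cells and a Cxcl2 UMI in 20.5% and 18.6%. Il1rn, which encodes the receptor antagonist that blocks interleukin-1, was at 497 against 176 CPM and 901 against 266 CPM (1.50 and 1.76). Nlrp3, the sensor of the inflammasome that processes interleukin-1 beta, was at 962 against 457 CPM and 1165 against 582 CPM (1.07 and 1.00). Il1a was at 43.5 against 21.7 CPM and 78.6 against 27.1 CPM, with 62.2% of its control UMIs in 5 cells. Il1r2, the decoy receptor, had ratios of 0.43 and 0.73.

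Csf1 encodes macrophage colony-stimulating factor and had the largest smaller ratio of the genes outside the rule. It stood at 232 against 38.1 CPM in GA and at 687 against 95 CPM in control, ratios of 2.61 (2.42 to 2.79) and 2.85 (2.64 to 3.06), and was detected in 78 of 338 and 45 of 111 cells. Csf1r-positive cells had 18.7 and 23.2 CPM. The other mature neutrophils with at least 10 UMIs of Isg15, Ifit1, Ifit3 and Rsad2 (78 and 31 cells) had 299 CPM in GA, above the members, and 285 CPM in control. Tnf stood at 125 against 47.1 CPM and 355 against 62.9 CPM (1.41 and 2.50), with 57.5% of its control UMIs in 5 cells. Osm, an interleukin-6 family cytokine with actions on bone-forming cells, had ratios of 0.50 and 0.67. Csf2 and Il12b had 0 UMIs in both libraries.

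Among the higher genes were the receptor genes Clec4n, Cd14 and Tlr4. Clec4n, the fungal and glycan receptor Dectin-2, was at 189 against 33.1 CPM and 869 against 104 CPM (2.52 and 3.06). Cd14, which hands lipopolysaccharide to Tlr4, was at 1790 against 808 CPM and 1930 against 682 CPM (1.15 and 1.50), and Tlr4 itself at 207 against 93.7 CPM and 242 against 95.4 CPM (1.14 and 1.34). Tlr2 differed by 0.37 and 0.43, and the adaptor Myd88 by 0.32 and 0.15. Of 10 measured genes of the Toll-like receptor list, 2 reached 2 times in both libraries.

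The immediate early list, transcription factors and feedback genes that respond within minutes to a stimulus, had 8 of 18 genes at 2 times in both libraries. All 18 were above 0 in both, and the list medians were 1.09 and 1.28. Egr2 was at 97.8 against 20.3 CPM and 242 against 26.4 CPM (2.27 and 3.20), and Egr3 at 115 against 31.7 CPM and 295 against 37.6 CPM (1.86 and 2.98). Atf3, a stress factor that restrains cytokine genes, was at 201 against 57.8 CPM and 425 against 88 CPM (1.80 and 2.27). The most abundant member, Junb, changed less, 3573 against 2322 CPM and 3197 against 2309 CPM (0.62 and 0.47). Some of these genes also respond to enzymatic digestion of tissue. In the list of 14 dissociation response genes, 9 were above 0 in both libraries and 4 (Jun, with 56.7% of control UMIs in 5 cells, Egr1, Socs3 and Atf3) reached 2 times, with medians of 0.94 and 0.67. The part of digestion in these values was not tested.

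Of 21 genes of NF-kB subunits and feedback, 19 were measured and 19 were above 0 in both libraries, with medians of 0.52 and 0.73. Only Traf1 and Sod2 reached 2 times in both. Nfkbia, the inhibitor that NF-kB itself induces, was at 1110 against 663 CPM and 1596 against 789 CPM (0.74 and 1.02), and the coactivator Nfkbiz at 962 against 669 CPM and 1188 against 680 CPM (0.52 and 0.81). Tnfaip3, the deubiquitinase A20, had ratios of 0.52 and 0.64. Icam1, on the same list, had 0.69 and 2.37, with 62.5% of its control UMIs in 5 cells.

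Among 12 measured genes of the Bcl2 family, which sets the threshold for cell death, 4 were at least 2 times higher in both libraries. Pmaip1, the pro-apoptotic Noxa, was at 54.8 against 13.7 CPM and 132 against 21.8 CPM (2.00 and 2.59). The pro-survival A1 genes Bcl2a1b (1.71 and 2.00), Bcl2a1d (1.96 and 2.07) and Bcl2a1a (1.47 and 2.66) share near-identical sequence, so the division of reads between them is uncertain. Mcl1, the most abundant member, had ratios of 0.37 (0.32 to 0.42) and 0.51 (0.40 to 0.61). Ptgs2, the inducible cyclooxygenase of prostaglandin synthesis, was at 1207 against 546 CPM and 2017 against 681 CPM (1.14 and 1.57). Lta4h, which makes leukotriene B4, was lower at 21.5 against 62.7 CPM and 21.3 against 79.2 CPM, with 54.8% and 70% of its few UMIs in 5 cells.

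Some genes outside the lists were high in level and detected in many members. Plek, a protein kinase C substrate of platelets and leukocytes, was at 3327 against 1374 CPM and 3818 against 1324 CPM (1.28 and 1.53). Hcar2, the niacin and ketone body receptor, was at 560 against 161 CPM and 585 against 231 CPM (1.79 and 1.34). Gadd45b, a stress-induced signalling protein, was at 494 against 170 CPM and 818 against 248 CPM (1.54 and 1.72). These were picked after their values were seen. Of 338 GA and 111 control members, Plek was detected in 335 and 106, Hcar2 in 233 and 72, and Gadd45b in 191 and 71. In control members, 5 cells held 14%, 25.5% and 25.7% of their UMIs, in the same order. The long noncoding RNA Gm29282 had ratios of 1.77 and 2.67 at 27.6 and 72.3 CPM. Tnfrsf26, a decoy receptor of the TNF receptor family, had 2.05 and 1.75 (59.3% of control UMIs in 5 cells), and Spp1, osteopontin, 1.87 and 1.67 (54.5% of control UMIs in 5 cells). Spp1 was far higher in Csf1r-positive cells, at 2160 and 5784 CPM against 674 and 889 CPM in the members.

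Of 15 genes of circulating neutrophils, 1 (Cd177) was at least 2 times lower in both libraries and 2 were above 0 in both, with medians of -0.37 and -0.64. Retnlg, a resistin-like secreted protein typical of blood neutrophils, was at 10597 against 19542 CPM and 8841 against 17975 CPM (-0.88 and -1.02), and the collagenase Mmp8 at 830 against 1487 CPM and 595 against 1235 CPM (-0.84 and -1.05). Cd177, a surface partner of proteinase 3, was at 103 against 243 CPM and 76.5 against 169 CPM (-1.23 and -1.14). The 6 subunits of the NADPH oxidase, which produces superoxide, had medians of -0.16 and -0.12, and none reached 2 times. The 14 defining neutrophil genes had medians of 0.12 and 0.16.

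Of 16 measured genes of tissue neutrophil activation, 14 were above 0 in both libraries and 3 (Ctsb, Clec4n and Spp1) reached 2 times, with medians of 0.79 and 0.94. Ctsb, a lysosomal protease, was at 245 against 111 CPM and 234 against 103 CPM. Of 16 measured genes of hypoxia and glycolysis none reached 2 times in both libraries, with medians of 0.10 and -0.09. Of 10 genes of the unfolded protein and heat shock responses only Ppp1r15a, which restores translation after stress, did so.

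The 6 genes with the lowest ratios, Cxcl12, Fcnb, Ms4a3, Gatm, Ebf1 and Mpo, rested on few molecules. Fcnb, Ms4a3, Gatm and Ebf1 had 0 UMIs in control members and 16, 46, 8 and 5 UMIs in at most 5 GA cells. In the other mature neutrophils Ms4a3 stood at 166 and 233 CPM, which puts it at least 5.19 log2 units lower in control members (counting a floor of 3 UMIs) and 2.82 lower in GA. Mpo had 179 UMIs in GA, 96.1% of them in 5 cells, and 1 UMI in control (-8.55, interval -13.85 to -6.07). Cxcl12 had 1 UMI in GA and 3 in control. These genes mark marrow precursors, B lineage cells or stroma.

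Interferon genes varied between members. A sum of at least 10 UMIs of Isg15, Ifit1, Ifit3 and Rsad2 was found in 26 GA members (7.69%, 5.09 to 11.1) and 5 control members (4.5%, 1.48 to 10.2), against 3.79% (3 to 4.7) and 3.37% (2.3 to 4.75) of the other mature neutrophils. Isg15 was at 368 against 151 CPM in GA (1.28) and at 185 against 168 CPM in control (0.14). For Ifit1, 25 GA members held all 262 UMIs and 5 of them held 69.5%. The 78 other mature neutrophils of GA above the interferon limit were close to the members in several of their genes. They held 229 CPM of Clec4n, 144 CPM of Egr3, 8114 CPM of Il1b and 1275 CPM of Ptgs2, each above the members, and 3579 CPM of Cxcl2 and 254 CPM of Il1rn, below them. In the 31 such cells of control all 6 were below the members, at 511, 190, 6060, 1206, 2965 and 250 CPM in the same order.

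**Figure D2:**
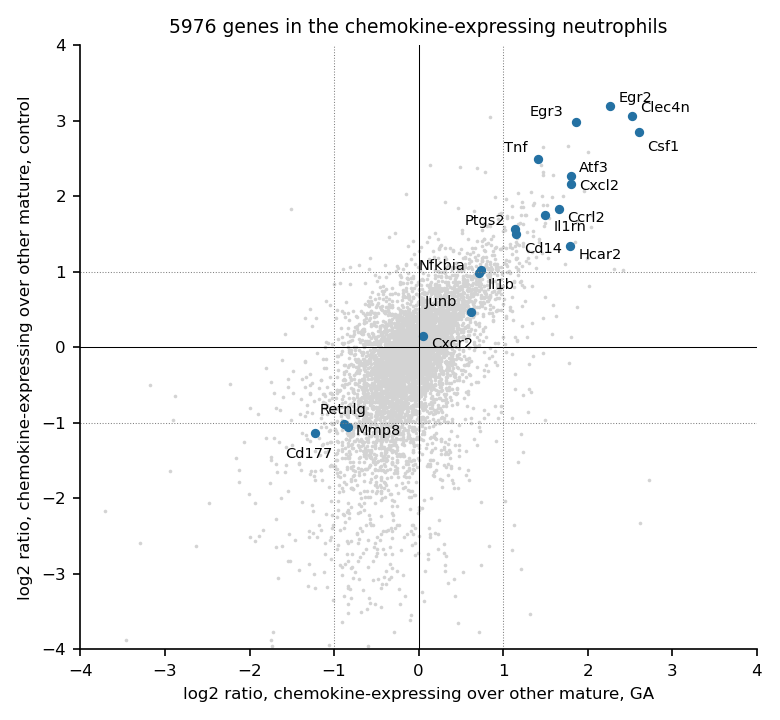
Each grey point is 1 of 5976 genes outside the rule, placed by its log2 ratio of CPM in chemokine-expressing over other mature neutrophils in GA (horizontal) and control (vertical), with dotted lines at 2 times either way and 15 genes beyond the axes. Csf1, Clec4n, Egr2, Egr3 and Cxcl2 lie at the upper right, and Retnlg, Mmp8 and Cd177 at the lower left.

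The same transcripts were graded by how much Ccl3 and Ccl4 a cell held. Mature neutrophils were divided into bands of 0, 1 to 4, 5 to 9, 10 to 19 and 20 or more UMIs of the pair, the last 3 of which are the members. In GA, Cxcl2 went from 1651 CPM in 1660 cells at 0 UMIs to 2830, 4300, 5398 and 9697 CPM in the 119 cells of the top band. In control it went from 1623 CPM through 2862, 4307 and 7095 to 14739 CPM in 38 cells. Each band was higher than the last in both libraries. Il1b followed from 4595 to 9239 CPM and from 4015 to 10578 CPM, and Il1rn from 154 to 696 CPM and from 239 to 1508 CPM. Retnlg ran the other way, from 20036 to 6897 CPM in GA and from 19681 to 5407 CPM in control, as did Mmp8, from 1528 to 536 CPM and from 1324 to 467 CPM. Cxcr2 stayed between 925 and 1030 CPM in the GA bands and between 842 and 981 CPM in the control bands. Median depth was slightly lower in the top band than in the lowest, 4852 against 5767 UMIs in GA and 3903.5 against 4323.5 in control. The part of depth in the grading was not tested. The share of S100a8 and S100a9, which the rule used, had a median of 20% in the lowest and 13% in the top band of GA, and of 17.3% and 6.52% in control. CPM are shares of all UMIs, so less of these abundant transcripts raises the CPM of the rest.

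**Figure D3:**
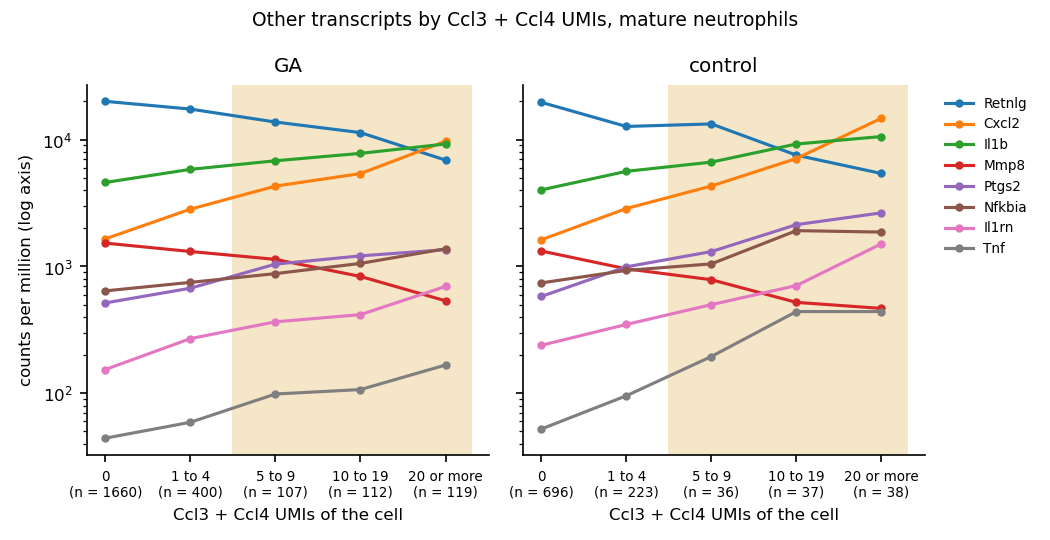
Summed CPM (log axis) of 8 transcripts in mature neutrophils grouped by their Ccl3 and Ccl4 UMIs, GA at left and control at right, with the number of cells under each band and the members shaded. Cxcl2, Il1b, Ptgs2, Il1rn and Tnf climb toward the top band or level off in it, and Retnlg and Mmp8 decline.

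Members with and without Ccl3 differed in what else they carried. At least 1 Ccl3 UMI was present in 182 GA and 67 control members, and 156 and 44 had entered on Ccl4 alone. The cells with Ccl3 held more Cxcl2, 9161 against 3841 CPM in GA and 12932 against 2595 CPM in control. They also held most of the members' Csf1, at 430 against 31 CPM and 1032 against 196 CPM (424 of 454 UMIs in GA and 285 of 323 in control). Clec4n was at 326 against 49.7 CPM and 1368 against 160 CPM, and Tnf at 168 against 80.7 CPM and 597 against 10.3 CPM. For Tnf in control this is 165 UMIs against 2. Il1b differed less, 8670 against 7260 CPM and 11096 against 5478 CPM. Retnlg was at 7043 against 14227 CPM and 5901 against 13021 CPM. For Retnlg and, in both libraries, Cxcl2, the cells without Ccl3 stood between the cells with it and the other mature neutrophils. Egr3 differed by library, 134 against 96.2 CPM in GA and 445 against 82.4 CPM in control. Cells with Ccl3 were not deeper, with medians of 4664 against 5545 UMIs in GA and 3892 against 4000 in control, but they held more of the pair by choice, a median of 17.5 against 11 UMIs and 16 against 11.

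Across single members thinned to 2000 UMIs, the Spearman correlation of Ccl3 with Cxcl2 was 0.41 in 338 GA cells and 0.58 in 111 control cells, and that of Ccl4 with Cxcl2 was 0.16 in both. Ccl3 and Ccl4 themselves correlated at 0.05 and 0.12 in members and at 0.03 and 0.12 in the other mature neutrophils. Both classes were cut by the sum of the pair, and the part of that cut was not tested. In 2039 GA and 910 control other mature neutrophils, Cxcl2 and Il1b correlated at 0.48 and 0.49, and in members at 0.17 and 0.46. These points share a library and are sparse counts, and are given as a description.

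Between the 2 libraries, 83 of 2875 genes with at least 100 UMIs in the members (2.89%) were at least 2 times higher in GA and 40 (1.39%) at least 2 times lower, with a median of -0.07 over all and 1247 above 0. Wfdc17, Ifitm1, Lrg1 and Lcn2 were higher in GA. Clec4n, Csf1, Tnf, Egr2, Egr3, Ier3 and Atf3 were lower. Of 15 measured genes of tissue neutrophil activation, 2 (Icam1 and Clec4n) were at least 2 times lower and 3 were above 0, with a median of -0.48. Without the mature cells of over 10000 UMIs the numbers were 36 higher and 36 lower of 2548. With a threshold of 3 UMIs of Ccl3 and Ccl4 in place of 5 they were 35 higher and 100 lower of 3422.

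Of the 10 genes with the highest ratio, 9 were held by a handful of GA cells. In Elane (6.85), Ctsg (6.02), Mpo (5.43), Hist1h1b (4.86), Hspa1b (4.10), Top2a (3.85) and Hspa1a (3.77), 5 GA cells held between 95% (Top2a) and 100% (Hist1h1b) of the UMIs. Control members had 1 UMI each of Elane, Ctsg, Mpo and Hist1h1b, 2 of Top2a, 4 of Hspa1b and 6 of Hspa1a (83.3 to 100% in 5 cells). Prtn3 and Ikzf2 had 0 UMIs in control, which puts them at least 5.25 and 3.47 log2 units higher, and 5 cells held 97.5% and 100% of their 473 and 138 GA UMIs. At a threshold of 3 UMIs of the chemokines, Elane, Ctsg, Mpo, Prtn3 and Hist1h1b were lower in GA instead, and Top2a was level (-0.03). These ratios describe single cells. The tenth was Wfdc17, a secreted protein with a whey acidic protein core known from activated myeloid cells. It stood at 4210 CPM in GA and 321 CPM in control, a ratio of 3.71 (3.48 to 3.96, 59.6% of control UMIs in 5 cells), and was found in 95.3% of GA members (92.4 to 97.3) and 25.2% of control members (17.5 to 34.4). B cells had it in 14.4% and 9.32%. After thinning, 88.5% of GA and 19.8% of control members had it. Wfdc17 had the same direction in the other mature neutrophils, with 2427 and 133 CPM (4.19, 4.07 to 4.31).

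Several genes followed Wfdc17 in both classes. Ifitm1, an interferon-inducible membrane protein, was at 3953 CPM in GA and 859 CPM in control, 2.20 (2.06 to 2.35) in members and 2.81 (2.74 to 2.89) in the other mature cells. Lrg1, a secreted glycoprotein of neutrophil granules, was at 541 and 130 CPM, 2.06 (1.69 to 2.46) against 2.18. Lcn2, which binds bacterial siderophores, was at 2098 and 818 CPM (1.36 against 1.06), and Wfdc21 at 1691 and 742 CPM (1.19 against 0.93). Tspo, a mitochondrial outer membrane protein, was at 446 and 168 CPM (1.41 against 1.22). Ly6g, the antigen used to stain mouse neutrophils, was at 231 and 78.6 CPM (1.55 against 1.00, 62.2% of control UMIs in 5 cells), and Bcl2l1, the survival protein Bcl-xL, at 309 and 140 CPM (1.14 against 0.88, 51.5% of control UMIs in 5 cells). Of 9 measured genes of the Bcl2 family, Bcl2l1 was the 1 at least 2 times higher in GA and 4 were at least 2 times lower, Bcl2a1a, Bcl2a1b (-1.33), Bcl2a1d (-1.58) and Pmaip1 (-1.27), with a list median of -0.21. Of the type I interferon list only Ifitm1 of 10 measured genes reached 2 times, and the list median was 0.26. The genes of this paragraph were picked with their values seen, and both ratios of a pair come from the same 2 libraries.

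Of the 10 genes with the lowest ratio, 3 rested largely on few control cells, Prdx1 (92.6% of control and 71.7% of GA UMIs in 5 cells), Eml1 (83.8% of control UMIs) and Tcf4 (100% of control UMIs, all in 1 cell, and 65.6% of GA UMIs in 5 cells). Clec4n was at 189 CPM in GA and 869 CPM in control, a ratio of -2.20 (-2.41 to -1.99), and was found in 87 of 338 and 45 of 111 cells. Icam1, the ligand of leukocyte integrins, was at 44.5 and 204 CPM (-2.20, -2.63 to -1.76, 62.5% of control UMIs in 5 cells), and the phosphatase Dusp2 at 36.9 and 176 CPM (-2.26, 59% in 5 control cells). Bcl2a1a was at 30.2 and 145 CPM (-2.26), the transcription factor Creb5 at 39.9 and 172 CPM (-2.11), Gadd45g at 28.7 and 102 CPM (-1.83, 60.4% in 5 control cells), and the long noncoding RNA Gm43661 at 79.9 and 253 CPM (-1.66).

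Several genes that were higher in the members than in other mature neutrophils stood lower in the GA library. Csf1 was at 232 and 687 CPM, -1.56 (-1.77 to -1.35) in members and -1.32 (-1.50 to -1.13) in the other mature cells. Tnf was at 125 and 355 CPM, -1.51 (-1.80 to -1.21) in members and -0.42 (-0.62 to -0.21) in the others, and 5 of the 111 control members held 57.5% of the 167 control UMIs. The share of members with a Tnf UMI did not follow, at 30.5% (25.6 to 35.7) in GA and 27% (19 to 36.3) in control, and at 18.6% and 21.6% after thinning to 2000 UMIs. Egr2 had -1.31 (-1.65 to -0.96) against -0.38 (-0.69 to -0.06), and Egr3 -1.36 (-1.67 to -1.04) against -0.25 (-0.50 to 0.02). Of the 18 immediate early genes, 5 were at least 2 times lower in GA (Egr2, Egr3, Ier3, Atf3 and Dusp2), none was 2 times higher and 3 were above 0, with a median of -0.38 in members and -0.12 in the other mature cells. Junb (0.16) and Fos (0.07) were near level. For NF-kB subunits and feedback the median was -0.34 with 2 of 18 above 0, and 1 gene, Icam1, reached 2 times. The interleukin-1 list had a median of -0.28 with 2 of 11 above 0. Over all 2875 measured genes, 1247 were above 0, with a median of -0.07. The difference between the 2 classes was not tested.

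Outside the rule, Il1b had a ratio of -0.14 (-0.19 to -0.09) and Cxcl2 of -0.41 (-0.46 to -0.36). Ccl4 had -0.17 (-0.24 to -0.09) and Ccl3 -0.93 (-1.05 to -0.81), in cells that the rule admitted by these transcripts in both libraries, so nothing is read from them. In Csf1r-positive cells Cxcl2 was at 2144 CPM in GA and 3440 CPM in control.

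**Figure D4:**
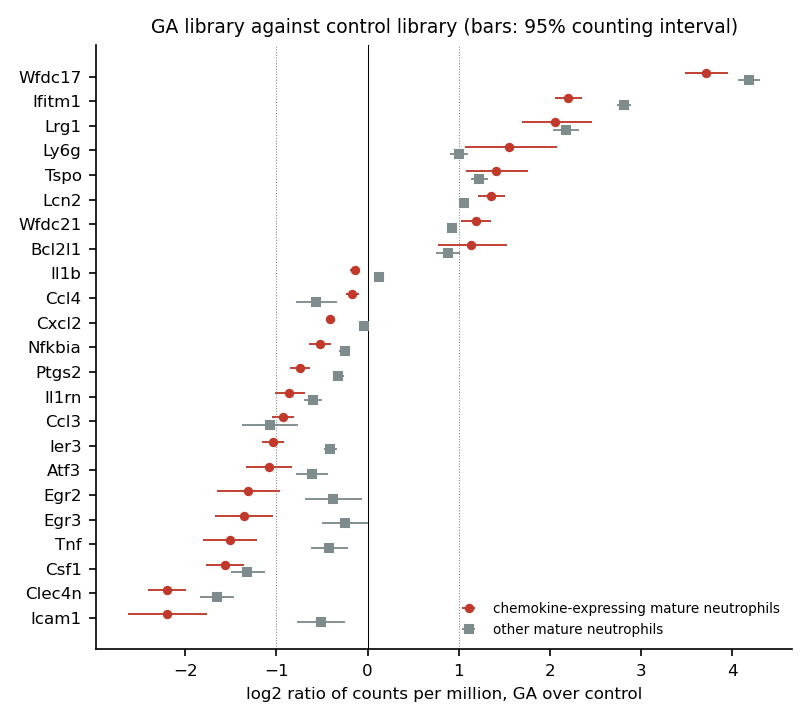
Log2 ratio of CPM, GA over control, for 23 genes in the chemokine-expressing (red circles) and other mature neutrophils (grey squares), with bars for the 95% counting interval and dotted lines at 2 times. Wfdc17, Ifitm1 and Lrg1 lie right of 2 times in both classes, and Tnf, Egr2, Egr3 and Icam1 lie left of it in the chemokine-expressing cells alone.

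The members were 3.74% of the cells of the GA library and 1.37% of those of control. Of Il1b UMIs they held 11.8% and 4.9%, of Cxcl2 7.61% and 1.71%, of Il1rn 7.2% and 2.45%, of Ptgs2 5.43% and 1.35%, of Tnf 3.18% and 1.4%, and of Cxcl1 0.0668% and 0.00722%. Of the pair that the rule used, given as a description, they contained 18.5% of all Ccl3 and Ccl4 UMIs within the GA library (18.1 to 18.9) and 5.01% in control (4.82 to 5.2). For Ccl3 alone the shares were 11.8% and 4.43%, and for Ccl4 22.3% and 5.36%. Csf1r-positive cells held 52.5% of the pair in GA and 72.6% in control. The cells with basophil or mast cell markers, 0.753% and 0.494% of all cells, held 11.4% and 9.72%.

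**Figure D5:**
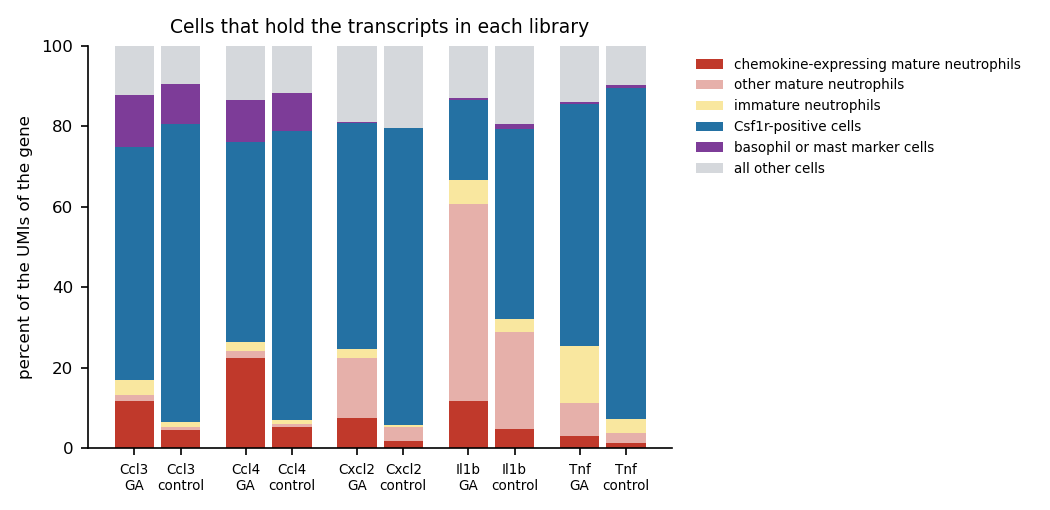
Stacked bars of the percent of a gene's UMIs in each library held by 6 groups of cells, for Ccl3, Ccl4, Cxcl2, Il1b and Tnf in GA and control. The chemokine-expressing mature neutrophils (red, at the base) hold a minority of every gene in the library, and Csf1r-positive cells (blue) hold the largest block of all but Il1b in GA.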

How the data were processed

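Droplet single-cell RNA sequencing gave 1 library per group, each from 5 pooled mice. The authors deposited whole-number UMI counts per gene and barcode, made with Cell Ranger 7.0.1 on mm10 per the file headers, while the paper's methods name a later version. Whether intronic reads were counted is not given in the sources used here. The 9322 GA and 8718 control barcodes held 182949385 and 214993030 UMIs (medians 10893 and 15469.5). Cells with 500 to 140000 UMIs, 200 to 9500 genes and at most 15% mitochondrial UMIs were kept.

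Within each library, UMIs of all cells belonging to 1 class were added up per gene and expressed as CPM, scaled to 1000000 UMIs. Ratios are log2 with exact conditional binomial 95% intervals, shares have Clopper-Pearson intervals, and intervals of share ratios use a log-normal approximation. All cover counting error only. A class with 0 UMIs was set at 3 UMIs over the group, which gives a bound. A gene was counted as different at 2 times. No p-value was computed. The ratio code was tested on simulated data. Doublets were kept: automatic Scrublet calls marked 0 and 32 (0.367%) barcodes, so the highest scores were instead removed as an alternative. NumPy 2.4.6, SciPy 1.17.1, pandas 2.3.3 and scanpy 1.11.5 were used.

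Named genes were the 12 highest and 6 lowest against other mature neutrophils, the 10 highest and 10 lowest between libraries, and genes of the lists described. Others were named after their values were seen. The members, lists and rules were chosen with earlier results of these data known. Some genes are not reported here.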

Additional observations from a re-analysis of the deposited data

Results flagged for a closer look

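For 12 genes, taken from those already picked for large ratios, the GA over control ratio of the chemokine-expressing cells pointed the other way from that of the other mature neutrophils. Each was at least 2 times apart in the chemokine-expressing cells, and the 95% interval of neither class included equal levels. Others, such as Chil3 and Tuba1b, also had opposite directions and are not among the 12. How many of all measured genes did so is not given. With 1 library per group the difference between the classes was not tested.

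The azurophil granule genes were higher in GA in the chemokine-expressing cells and lower in the other mature neutrophils. The log2 ratios were 6.85 against -0.72 for Elane, 6.02 against -0.19 for Ctsg, 5.43 against -0.53 for Mpo and at least 5.25 against -0.15 for Prtn3. Ms4a3, a gene of granulocyte precursors, had at least 1.88 against -0.49. Without cells of over 10000 UMIs, Elane and Ctsg each had 0.87 (-2.09 to 6.36) and Mpo 1.52 (-1.26 to 6.95). Prtn3, with 0 control UMIs, then had at least 0.18.

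Genes of dividing cells had 4.86 against -0.85 for Hist1h1b and 1.44 against -0.12 for H2afz. Top2a had 3.85 and was lower in GA among the other mature neutrophils (95% interval -1.25 to -0.75). Without the deep cells H2afz stood at 0.59 (0.21 to 0.99) and Top2a at -0.13 (-2.52 to 3.17). The heat shock genes Hspa1b and Hspa1a had 4.10 against -0.85 and 3.77 against -0.71, and -0.48 and -1.52 without the deep cells.

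Tcf4, a transcription factor of plasmacytoid dendritic and B cells, had -1.62 against 0.57, with all its control UMIs in 1 cell. Without the deep cells Tcf4 had 0 control UMIs and turned to at least 1.34, the direction of the other mature neutrophils. Ddx60, an interferon-induced helicase, had 1.05 (0.53 to 1.62) against -0.37, and 1.15 (0.61 to 1.74) without the deep cells. In GA 21.1% of its UMIs were in 5 cells, and in control 48.5% of only 33 UMIs.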

How the results depend on the processing

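No paired analysis was possible because each group is 1 library. Leaving out a replicate was not done for the same reason. Leaving out mature neutrophils of over 10000 UMIs was chosen after seeing the data. The cause of the shifts below was not tested. The GA over control ratio of the share of mature neutrophils (1.31) was 1.01 after thinning to 2000 UMIs and 1.61 with S100a8 and S100a9 at 6% or more, and that of all cells (2.73) was 2.1 and 3.68. The members' percent of Ccl3 and Ccl4 UMIs, 18.5 in GA and 5.01 in control, was 19.2 and 5.38 at 3 UMIs, 16.8 and 4.52 at 10 UMIs, 16.7 and 2.94 with S100 at 6%, 14.7 and 3.96 with Csf1r at 0, and 20.5 and 5.35 without the highest doublet scores. It was 5.21 in control after thinning and 17.5 in GA without the deep cells. The 123 genes 2 times apart between libraries became 77 after thinning (42 higher and 35 lower in GA), 78 with S100 at 6% (38 and 40), 72 without the deep cells (36 and 36), 286 with a minimum of 50 UMIs and 56 with 200 (43 and 13). The split was 47 and 45 with the chemokines at 0.1% of UMIs and 55 and 50 with cells scaled alike. The 101 genes higher than in other mature neutrophils ranged from 68 to 143.

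The main analysis called 126 values of named genes at 2 times. Of their 1627 results in the alternatives, 94 fell under 2 times. Direction turned in 27 of these 1627 results, 21 in planned and 6 in added alternatives. Values under 2 times in the main analysis that changed sign were not counted. Between libraries at 3 UMIs, Mpo was -3.38, Elane -2.87, Prtn3 -2.03, Ctsg -1.79, Hist1h1b -0.30 and Top2a -0.03. With S100 at 6%, Hspa1a was -0.90, Mpo and Top2a -0.31 and Prtn3 -0.20. Without the deep cells, Hspa1a was -1.52, Hspa1b -0.48 and Top2a -0.13. Tcf4 was 1.93 at 10 UMIs, 2.39 at 0.1%, 2.59 after thinning, 1.36 without the highest doublet scores and 1.34 without the deep cells, and Ccl2 was 0.26 with Csf1r at 0. Against other mature neutrophils in control, Cxcl12 was 8.01 at 3 UMIs, 1.71 with S100 at 6%, 1.56 without the highest doublet scores and 1.41 without the deep cells, Lta4h was 0.58 and Mpo 0.08 at 3 UMIs, and Ebf1 was 0.51 with S100 at 6%. In GA, Gatm was 0.16 without the deep cells.

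Of the list medians, 2 of 826 planned and 1 of 69 added were counted as turned. Only medians at 2 times or more in the main analysis could count, and smaller medians that changed sign were left out. All were the immature neutrophil list between libraries, with a median of 1.92, which was at -0.26 with 3 UMIs, -0.37 with S100 at 6% and -0.24 without the deep cells. The 111 control members and their 470445 UMIs limit the precision of every comparison between libraries.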
